A study of Rattus norvegicus with 6 samples.

Results

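The rows analysed here are the expressed pseudogenes of a rat PC12 transcriptome: genes typed pseudogene or processed_pseudogene in the deposited count table that gathered at least 60 raw counts over 6 libraries. They were thus selected on their annotated type and on their summed counts, which use both groups alike and not the difference between them. This minimum kept 196 of the 649 rows of these types, out of 20609 genes in the table. Of the members, 151 were typed pseudogene (of 423 such rows) and 45 were typed processed_pseudogene (of 226). A pseudogene is a copy of a gene that is annotated as no longer encoding the full protein of its parent. A processed pseudogene arose when a messenger RNA was copied back into the genome, so that it lacks introns and usually lies on another chromosome than its parent. Genes with abundant mRNA, such as those of ribosomal proteins, have left many such copies in rodent genomes, and a copy is usually transcribed where it landed near an active promoter. An automatic annotation can also call an intact gene a pseudogene, intronless genes among them.

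PC12 is a cell line from a pheochromocytoma, a tumor of the rat adrenal medulla. PCBP1 is a protein that binds C-rich stretches of RNA, and its own gene is an intronless copy of PCBP2. The control group (Ctrl) was 3 PC12 libraries from cells given a control plasmid, and the PCBP1-OE group was 3 libraries from cells given a plasmid for PCBP-1, described in the methods as an EGFP-tagged construct delivered with a lipid reagent. The text of the study speaks both of transfection and of stable overexpression, and the sources used here do not say whether each library came from a separate culture, so p-values measure the spread between these libraries only. Poly-A RNA was sequenced. The libraries held 19730209 to 22315623 counts on genes. No row of the table was matched to Pcbp1, so the overexpression itself was not checked.

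The labelled cell type was checked against markers of chromaffin cells, the parent type of PC12. Of 8 chromaffin markers, 6 were in the table. Dbh, Ddc, Chga and Chgb, which act in catecholamine synthesis or fill the storage granules, had between 0 and 9 counts in each library. Th, the first enzyme of catecholamine synthesis, had 141 to 185 counts and Slc18a1, a vesicle transporter, 17 to 28. The summed level of the chromaffin list was 8.47 to 9.87 CPM (counts scaled to a common library total, adjusted by the TMM method) in Ctrl and 8.62 to 9.90 CPM in PCBP1-OE. Sox10, a transcription factor of glia, had 7160 to 9007 counts, and the 5 glial or Schwann markers summed to 620.0 to 664 CPM in Ctrl and 587 to 606 CPM in PCBP1-OE, a lower range in PCBP1-OE. Leukocyte markers summed to 6.89 to 8.96 CPM and fibroblast or endothelial markers to 4.54 to 5.97 CPM. Thus 4 of the 6 chromaffin markers were at or near 0 in both groups, with Th and Slc18a1 at low levels, and the part of any cell type difference in the results below was not tested.

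The members drew few reads. Together they held 685145 counts over the 6 libraries. The median member had 226.5 counts, against 3209 for the median gene tested. LOC100360645, described as ubiquitin B-like and lying on chromosome 10, alone took 34.3% of the counts, and the 10 members with the most counts took 75.0%. The remaining members were mostly at low counts, and 50 of 196 reached 1000. Only 25 members carry a description. The other 171 have clone or assembly names and none.

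As a share of all counts on genes, the members took 0.547%, 0.570% and 0.544% in the 3 Ctrl libraries and 0.541%, 0.547% and 0.547% in the 3 PCBP1-OE libraries. The means were 0.554% ± 0.0145 and 0.545% ± 0.00329 (SD, n = 3 per group), and the groups overlapped. LOC100360645 by itself took 0.189%, 0.208% and 0.191% in Ctrl and 0.179%, 0.187% and 0.177% in PCBP1-OE, with every PCBP1-OE library below every control. The other members together took 0.357% ± 0.00490 in Ctrl and 0.364% ± 0.00542 in PCBP1-OE, again with overlap. The difference of the sum (PCBP1-OE minus Ctrl) was -0.00894 percentage points with LOC100360645 and 0.00637 without it, so 1 member set its sign. Without Ctrl 2, the library with the highest share, the difference with all members was -0.000633 percentage points.

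**Figure D1:**
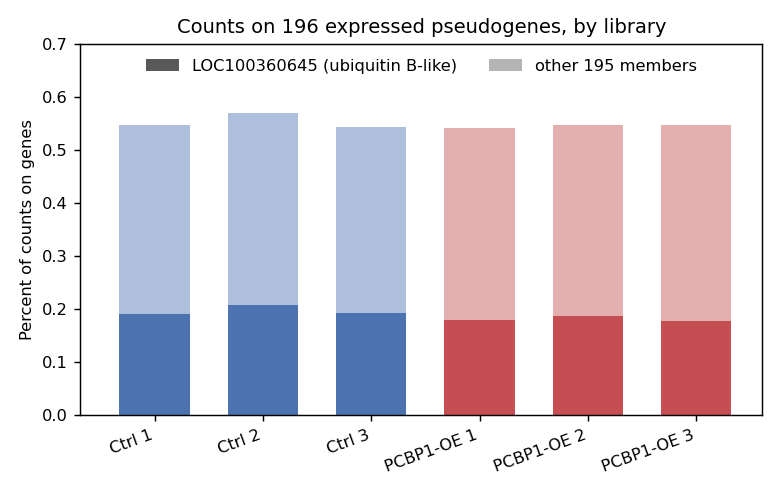
Percent of the counts on genes that fell on the 196 members in each library (bars start at 0; blue, Ctrl; red, PCBP1-OE). The dark part is LOC100360645 and the pale part the other 195 members; the total lies between 0.541% and 0.570% in every library, and the dark part is lower in each PCBP1-OE library than in each Ctrl library.

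No member had most of its reads in 1 library. The share of a member's counts in its highest library had a median of 21.0%, and 0 of 196 members passed 50%, the limit set for marking a row. The highest share was 32.4%, in LOC100912427, described as like nuclease-sensitive element-binding protein 1 (the product of Ybx1), with 9, 11 and 11 counts in Ctrl and 10, 23 and 7 in PCBP1-OE. Of the 12362 other genes with at least 60 counts, 16 (0.129%) passed the limit. Below the minimum of 60 counts the picture differed: 178 of 453 rows of the same types passed it, though most of these had very few counts, and among the 166 such rows with 10 counts or more it was 6.

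The minimum set which pseudogenes were described. Just inside it were AABR07032751.1 with 62 counts and AABR07057333.1 and Rn60_7_1164.3 with 60 each. Just outside it were LOC685431, similar to alpha-enolase, with 58 counts, LOC102549158, described as sorting nexin-1-like, with 57, and AABR07017999.1 with 57. Pseudogene rows passed more often than processed_pseudogene rows, at 35.7% and 19.9%.

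PCBP1-OE was compared with Ctrl by edgeR's quasi-likelihood test over the 12624 genes with enough counts, which included all 196 members, with p-values adjusted over all genes by the Benjamini-Hochberg method. A member was called higher or lower where its FDR, the adjusted p, was 0.05 or less. Of the members, 4 were called higher and 4 lower, in all 4.08%, while 9.45% of all genes tested were called. By direction the share of all genes was 4.45% higher and 5.0% lower. Only AABR07010421.1 and AABR07035375.2 among the members also changed by 2-fold or more, 1.02% of members against 0.19% of all genes. The first of these reached the minimum of 60 counts mainly through the PCBP1-OE libraries, where it is high, so the share of members with a 2-fold change is no result about them. At an unadjusted p of 0.05 or less there were 31 members, 15.8%, against 28.4% of all genes. The called share of the members was thus below that of the table as a whole, and their counts were lower too.

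The sizes of change were small. The log2 fold changes of the members ran from -0.74 to 1.67, and 169 of 196 lay within 0.5 of 0. Their median was 0.070, against 0.0029 over all genes tested. Of the members, 122 had a positive and 74 a negative log2 fold change, so 62.2% were positive, against 50.5% of all genes. In 43 members (21.9%) the normalized CPM of the groups did not overlap, against 30.6% of all genes. Of the 196 members, 28 (14.3%) were higher in PCBP1-OE without overlap, near the 14.1% of all genes, and 15 (7.65%) were lower, against 16.5% of all genes. Ctrl 1 bears on these values, since without that library the median of the members was 0.13, and on the count of members without overlap, which was then 65. Without Ctrl 3 that count was 82, and leaving out any library makes overlap rarer by construction.

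The median moved with the number of counts. Among 90 members with 60 to 199 counts the median log2 fold change was 0.15, and among all genes of that class it was 0.10. Among 56 members with 200 to 999 counts it was 0.13, against 0.10, and among 50 members with 1000 counts or more it was -0.036, against -0.018. In each class the median of the members lay near that of all genes with as many counts. The spread between replicates was near that of all genes in the lowest and middle classes and wider in the highest. From the lowest to the highest class, the median coefficient of variation within groups was 26.4%, 16.2% and 7.17% for the members. For all genes it was 27.9%, 14.9% and 5.27%.

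The calls were also set beside those of all genes by class. In the highest class 2 members were called higher and 4 lower, 12%, and the share of all genes of that class was 12.4%. In the lowest class 2 were called higher, 2.22%, against 0.772%. AABR07010421.1 is among them and reached the minimum mainly through the PCBP1-OE libraries, so this share is no result about the members. In the middle class edgeR called 0 of 56, against 4.11% of all genes there, while DESeq2 called 1 and limma-voom 0. At an unadjusted p of 0.05 or less there were 7 members of this class, all higher. The share of all genes tested at that level, whatever their counts, was 28.4%, so the 7 are no result about the members. Members without overlap between groups made up 17.8%, 17.9% and 34.0% of the 3 classes, and 14.3%, 21.8% and 35.8% of all genes in them.

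**Figure D2:**
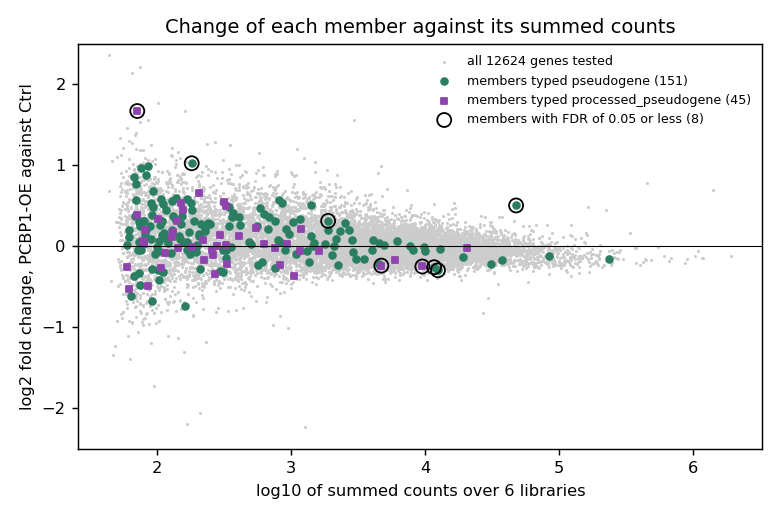
log2 fold change of PCBP1-OE against Ctrl (vertical) against the log10 of counts summed over 6 libraries (horizontal) for all 12624 genes tested (grey), the 151 members typed pseudogene (green circles) and the 45 typed processed_pseudogene (violet squares), with the 8 called members ringed. The vertical axis ends at 2.5 in both directions, 3 genes that are not members lie beyond it, and AABR07073038.1 stands apart among the members with many counts at a log2 fold change of 0.51.

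AABR07073038.1 (ENSRNOG00000017708), a row on chromosome 4 typed pseudogene and without a description, had the smallest p of all members. Its raw counts were 5847, 6749 and 7455 in Ctrl and 9907, 9201 and 8792 in PCBP1-OE. After scaling these were 298, 323 and 332 CPM against 449.6, 456 and 449 CPM, with no overlap. The 3 PCBP1-OE libraries lay close together, at 451 ± 3.95 CPM (SD, n = 3), and the controls were at 318 ± 17.7 CPM (SD, n = 3). Its log2 fold change was 0.51 ± 0.047 (SE), a 1.42-fold rise (edgeR's quasi-likelihood test, Benjamini-Hochberg adjusted p = 0.000215). It passed under all 13 alternatives, with log2 fold changes of 0.47 to 0.54 and adjusted p of 3.93e-23 to 0.0204. No other of the 8 called members passed without Ctrl 2, without PCBP1-OE 1 or without PCBP1-OE 2.

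The other members called higher had fewer counts. AABR07010421.1, a processed_pseudogene on chromosome 2, had 3, 7 and 7 counts in Ctrl and 22, 13 and 19 in PCBP1-OE, all PCBP1-OE libraries above all controls. Its log2 fold change was 1.67 ± 0.42 (SE; edgeR, adjusted p = 0.0304). It had 71 counts in all. Without Ctrl 3 its adjusted p was 0.0207, and with any of the other 5 libraries left out it lay between 0.0657 and 0.126.

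AABR07035375.2, a pseudogene row on chromosome 12, had 26, 17 and 17 counts in Ctrl and 43, 38 and 40 in PCBP1-OE. The groups did not overlap, and the log2 fold change was 1.03 ± 0.27 (SE; edgeR, adjusted p = 0.0354). It passed without Ctrl 1 or without Ctrl 3, at 0.0441 and 0.0434, and not without Ctrl 2 or any PCBP1-OE library, at 0.0828 to 0.156. DESeq2 gave neither AABR07035375.2 nor AABR07010421.1 an adjusted p.

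AABR07027854.1, a pseudogene row on chromosome 17, had 258, 278 and 316 counts in Ctrl and 360, 333 and 346 in PCBP1-OE. These were 13.5 ± 0.499 CPM and 16.8 ± 0.723 CPM (SD, n = 3 each), with no overlap. The log2 fold change was 0.31 ± 0.090 (SE; edgeR, adjusted p = 0.0463). It passed without Ctrl 3, at 0.0229, and with each of the other 5 libraries left out it was at 0.108 to 0.163.

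The 4 members called lower fell by 0.24 to 0.30 on the log2 scale. AABR07000658.1, a pseudogene row on chromosome 1, had 2219, 2404 and 2320 counts in Ctrl and 1950, 1766 and 1848 in PCBP1-OE, or 111 ± 6.27 and 90.1 ± 3.69 CPM (SD, n = 3 each). Every PCBP1-OE library was below every control, and the log2 fold change was -0.30 ± 0.052 (SE; edgeR, adjusted p = 0.00965). It passed without Ctrl 3 or PCBP1-OE 3 and lay between 0.0516 and 0.0815 with each of the other 4 left out. AABR07054362.1, a pseudogene row on chromosome 3, had 2143, 2213 and 2059 counts against 1847, 1687 and 1752, a log2 fold change of -0.26 ± 0.062 (SE; edgeR, adjusted p = 0.0263), and its groups did not overlap in CPM either. It also passed without Ctrl 3 or PCBP1-OE 3, and lay between 0.104 and 0.156 with each of the other 4 left out.

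Both remaining members called lower were typed processed_pseudogene. Rn60_10_0698.6 on chromosome 10 had 89.2, 87.4 and 73.8 CPM in Ctrl and 67.9, 68.3 and 74.5 CPM in PCBP1-OE, so that PCBP1-OE 3 lay above Ctrl 3 and the groups overlapped. Its log2 fold change was -0.25 ± 0.069 (SE; edgeR, adjusted p = 0.0410). LOC100360791 on chromosome 1, described as translationally-controlled tumor protein 1, a growth-related protein abundant in most cells, had 756, 899 and 924 counts in Ctrl and 724, 729 and 691 in PCBP1-OE. In CPM the groups did not overlap, at 40.9 ± 2.27 and 34.8 ± 1.70 (SD, n = 3 each), and its log2 fold change was -0.24 ± 0.066 (SE; edgeR, adjusted p = 0.0410). Each of these passed without Ctrl 3, and with any of the other 5 libraries left out the adjusted p was 0.0501 to 0.185 for Rn60_10_0698.6 and 0.0598 to 0.180 for LOC100360791. With upper-quartile scaling both were just over the threshold (0.0527 and 0.0549). Over all genes, 2860 were called without Ctrl 3 and 48 to 697 without any other library, against 1193 with all 6.

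**Figure D3:**
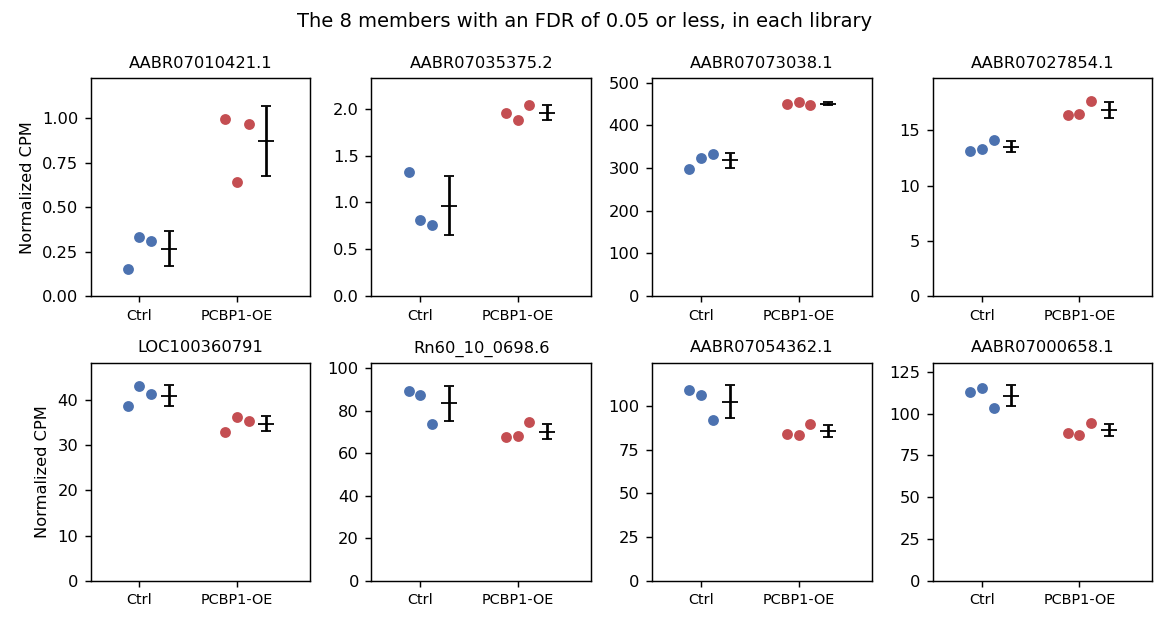
Normalized CPM (TMM scaling, vertical axis from 0) of the 8 called members in each library, with 3 points per group (blue, Ctrl; red, PCBP1-OE) and beside them the mean and SD (n = 3). The groups overlap in 1 panel, that of Rn60_10_0698.6, and the scatter within groups is widest relative to the mean in AABR07010421.1 and AABR07035375.2, which have the fewest counts.

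Among the 10 members with the most counts, AABR07073038.1, AABR07000658.1 and AABR07054362.1 were called, as given above. The others missed the threshold. LOC100360645, the ubiquitin B-like row, had 38367, 44176 and 42677 counts in Ctrl and 38246, 37046 and 34831 in PCBP1-OE, or 1992 ± 111 and 1783 ± 50.5 CPM (SD, n = 3 each). Ubiquitin is the small protein that marks others for degradation, and Ubb encodes it as a chain of repeats. All PCBP1-OE libraries were below all controls, but the log2 fold change of -0.16 ± 0.049 (SE) missed the threshold (edgeR, adjusted p = 0.0565). It passed with limma-voom at 0.0455, with DESeq2 at 0.0153, without a filter on low counts at 0.00144 and without Ctrl 3 at 0.00686. No row of the table carries the symbol Ubb itself, and the RefSeq table of the assembly GRCr8 places Ubb on chromosome 10, the chromosome of LOC100360645; whether its reads are those of Ubb was not tested.

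LOC100360491, described as like ribosomal protein L13, had 6561, 6837 and 6689 counts in Ctrl and 5942, 5887 and 5778 in PCBP1-OE. Its CPM did not overlap, and the log2 fold change was -0.17 ± 0.053 (SE; edgeR, adjusted p = 0.0662). Of the others among the 10 with the most counts, AABR07054332.1 on chromosome 3 had a log2 fold change of -0.12 (edgeR, adjusted p = 0.163), AABR07026311.1 on chromosome 16 -0.21 (0.0975) and AABR07042821.1 on chromosome 19 -0.13 (0.112), and all 3 overlapped in CPM between the groups. LOC100911361, like the RNA-binding protein hnRNP A3, was at 168 ± 10.4 CPM in Ctrl and 165 ± 12.2 CPM in PCBP1-OE (SD, n = 3 each). Uba2-ps1, named after an enzyme that activates SUMO, was at 105 ± 5.92 and 103 ± 6.74 CPM (SD, n = 3 each). The sign of these 2 small differences depended on the libraries used.

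Beyond the called members, the largest changes without overlap between groups came from rows with few counts. AABR07006333.1 on chromosome 1 had 11, 8 and 10 counts in Ctrl and 13, 23 and 21 in PCBP1-OE, so that its log2 fold change was 1.00 ± 0.38 (SE; edgeR, adjusted p = 0.105). AC131360.2 on chromosome 18 had 9, 8 and 9 against 13, 18 and 19 counts, 0.96 ± 0.37 (SE; edgeR, adjusted p = 0.109). AABR07015639.1 on chromosome 14 had 13, 12 and 4 against 18, 14 and 21 counts, 0.88 ± 0.43 (SE; edgeR, adjusted p = 0.200). None of these 3 passed. At the level of their Ctrl libraries all 3 would have missed the minimum sum of counts for a member. They are members only through the PCBP1-OE libraries, where they are high, so these rises are no result about the members.

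In the other direction the order by size began with AABR07063544.1 on chromosome 6, which had 26, 32 and 43 counts in Ctrl and 23, 18 and 18 in PCBP1-OE, so that its log2 fold change was -0.74 ± 0.26 (SE; edgeR, adjusted p = 0.0874). AABR07060364.1 on chromosome 4 followed with 11, 15 and 13 against 9, 6 and 10 counts, -0.61 ± 0.39 (SE; edgeR, adjusted p = 0.334). Uqcr10, a row on chromosome 15 with the symbol of a subunit of respiratory complex III, had 19, 14 and 17 against 12, 12 and 11 counts, and Rn60_X_0750.2 on chromosome X had 210, 191 and 194 against 140, 147 and 168. Their log2 fold changes were -0.49 ± 0.34 and -0.36 ± 0.14 (SE; edgeR, adjusted p = 0.370 and 0.112). None of these 4 passed either. AABR07060364.1 would have missed the minimum sum at the level of its PCBP1-OE libraries, so its fall is no result about the members.

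Of the 453 rows under the minimum, 19 were higher and 13 lower in PCBP1-OE without overlap. Among all genes tested 14.1% were higher and 16.5% lower in this way, so the 19 and 13 are no result about these rows. A pair of the 19 is given here because a supplement of the study lists them among changed genes, so they were picked for their change, and they had too few counts for the test. AC124205.1 on chromosome 5 had 2, 2 and 4 counts in Ctrl and 13, 12 and 8 in PCBP1-OE. AABR07069524.1 on chromosome 8 had 0, 0 and 1 against 5, 5 and 3. Both were higher in all 3 PCBP1-OE libraries, and no fold change is given at these counts.

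By type, 3 of the 151 pseudogene rows were called higher and 2 lower, with a median log2 fold change of 0.096. Of the 45 processed_pseudogene rows 1 was called higher and 2 lower, with a median of 0.017. The 1 called higher was AABR07010421.1, which reached the minimum mainly through the PCBP1-OE libraries, so that call is no result about the type. Over all genes tested 4.45% were called higher and 5.0% lower. The median member of the types had 226 and 256 counts. Members lay on 21 chromosomes and on the unplaced scaffold KL568148.1. Chromosome 1 held 22 members, chromosomes 2 and X 18 each and chromosome 17 13. For chromosome X this was 9.18% of the members against 3.18% of all genes tested, and for chromosome 17 6.63% against 2.94%. The median log2 fold change of the 18 members on chromosome X was 0.15, with none called, against -0.00049 over all genes tested there. For the 13 on chromosome 17 it was 0.31, with AABR07027854.1 called, against 0.046. The lowest medians of members were -0.21 on chromosome 16, with 3 members, and -0.17 on chromosome 8, with 5.

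The members were then set beside the genes they are named after. A parent could be read from the description, the symbol or a synonym for 22 members, and 20 of them had a parent row in the table, for 19 different parents. In 19 of the 20 the member lay on another chromosome than the parent, the exception being Ears2. Raw counts, which are not corrected for length, were lower in the member than in the parent in 18 of 20, and higher in Uba2-ps1 and in AABR07069282.1, which RefSeq lists as Nek2l1, a pseudogene of the cell cycle kinase gene Nek2. Only reads that mapped to 1 place were counted, so the split of reads between a copy and a near-identical parent is uncertain in these values.

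LOC100360791 and Tpt1 were both called lower. Tpt1 had 34305, 35799 and 34704 counts in Ctrl and 30265, 28692 and 30494 in PCBP1-OE, and its log2 fold change was -0.20 ± 0.058 (SE; edgeR, adjusted p = 0.0453), next to -0.24 ± 0.066 for the member. LOC100360491 at -0.17 ± 0.053 and Rpl13 at -0.17 ± 0.053 (SE) had values that were nearly equal, and neither passed (edgeR, adjusted p = 0.0662 and 0.0561). LOC100363537, like ribosomal protein L10a, was at -0.16 ± 0.072 (SE; edgeR, adjusted p = 0.167), and Rpl10a at -0.17 ± 0.047 (SE; edgeR, adjusted p = 0.0389). LOC100911693, like the translation initiation factor eIF4G1, was at 0.36 ± 0.15 (SE; edgeR, adjusted p = 0.127), and Eif4g1 at 0.34 ± 0.10 (SE; edgeR, adjusted p = 0.0532). Members and parents lay close together in these 4 cases, of which 1 had both called.

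Other pairs lay apart. Hnrnpa3, with 241 ± 9.14 CPM in Ctrl and 272 ± 3.63 CPM in PCBP1-OE (SD, n = 3 each) on its chromosome 3 row, rose by a log2 fold change of 0.17 ± 0.044 (SE; edgeR, adjusted p = 0.0313), while LOC100911361 was at -0.026 ± 0.061 (SE; edgeR, adjusted p = 0.820). A second row named Hnrnpa3, on chromosome 10, was at 0.019 ± 0.053 (SE; edgeR, adjusted p = 0.846). Mgst3, a microsomal glutathione transferase, fell by 0.28 on the log2 scale (SE 0.078; edgeR, adjusted p = 0.0417), while RGD1561381, similar to it, was at 0.31 ± 0.27 (SE; edgeR, adjusted p = 0.492). Uba2 was at 0.23 ± 0.077 and Uba2-ps1 at -0.032 ± 0.057 (SE; edgeR, adjusted p = 0.0767 and 0.752). The difference within a pair was not tested.

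Over the 20 pairs, 12 had the same sign and 8 had not, and in 15 the member was within 2 standard errors of its parent. Pearson's r of the log2 fold changes was 0.215 across pairs, which is a description across genes in the same 6 libraries, and several members have few counts. Of the parents, Hnrnpa3 was called higher, and Tpt1, Rpl10a and Mgst3 lower. Each of these 4 lost the call without Ctrl 1, Ctrl 2, PCBP1-OE 1 or PCBP1-OE 2, and Hnrnpa3 and Mgst3 lost it without PCBP1-OE 3 as well. With upper-quartile scaling Tpt1, Rpl10a and Mgst3 were just over the threshold (edgeR, adjusted p = 0.0525 to 0.0582).

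**Figure D4:**
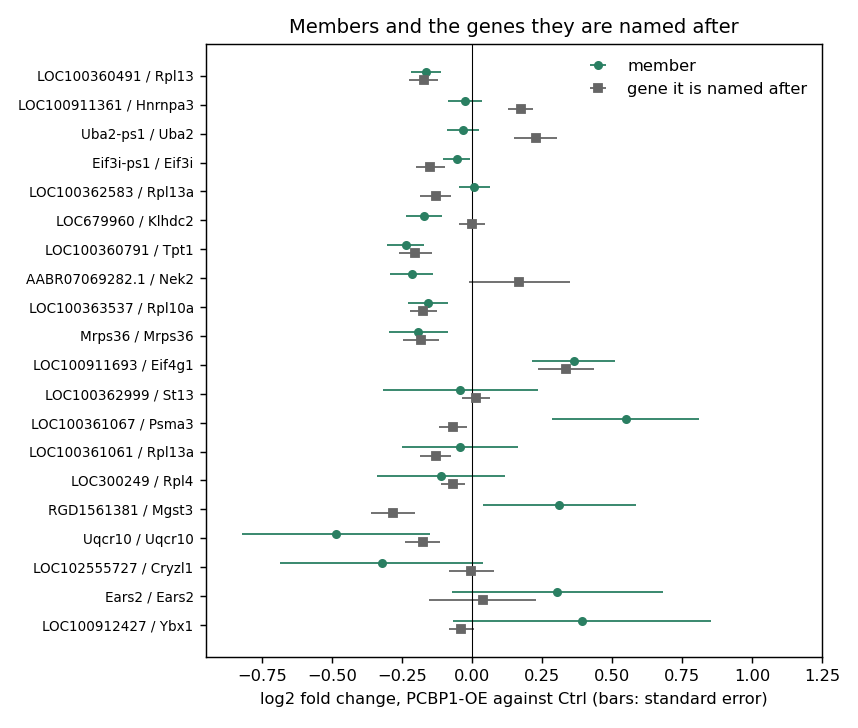
log2 fold change (PCBP1-OE against Ctrl) with its standard error for 20 members (green circles) and the genes they are named after (grey squares), ordered from the member with the most counts at the top. Members at the top have bars about as short as those of their parents, and bars lengthen towards the bottom, where LOC100912427 has 71 counts.

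A part of the members carries the name of an intact gene. Of the 196, 15 matched a gene in the RefSeq table by symbol or synonym. There 12 are listed as protein_coding, 8 of them on the chromosome the count table gives, and 3 as pseudogenes. The 8 were Sephs2, AABR07053741.1 (Fastkd5), AABR07066529.1 (Plin3), Ado, LOC102551819, Arsj, Nap1l2 and Ears2. Sephs2, a selenoprotein that makes selenophosphate and is encoded by an intronless gene, had 667, 714 and 658 counts in Ctrl and 659, 657 and 636 in PCBP1-OE, so that its log2 fold change was -0.039 ± 0.076 (SE). Nap1l2, an intronless gene of chromosome X for a nucleosome assembly protein, had 42, 37 and 57 against 67, 56 and 65 counts. It was higher in PCBP1-OE without overlap in CPM, at a log2 fold change of 0.50 ± 0.20 (SE; edgeR, adjusted p = 0.127). Ado, a thiol dioxygenase, was at 0.078 ± 0.15, and Arsj, an arylsulfatase, at 0.27 ± 0.22 (SE). Of the 8, edgeR called 0, as did DESeq2 and limma-voom, and 1 (Nap1l2) had an unadjusted p under 0.05. Without these 8, the calls among the remaining members stayed at 4 higher and 4 lower.

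Rows left out by the choice of types gave a further view. The table types 39 rows as unprocessed_pseudogene or transcribed_processed_pseudogene, of which 14 had at least 60 counts. Of these edgeR called 0, DESeq2 and limma-voom also called 0, and 1 had an unadjusted p of 0.05 or less. The table also types 21 rows protein_coding although their description says pseudogene, of which 13 had at least 60 counts. Here 3 were called lower: Hint1-ps1 at -0.23, Rpl34-ps1 at -0.22 and Gapdh-ps2 at -0.29 on the log2 scale (edgeR, adjusted p = 0.0348, 0.0362 and 0.0407). Their parents by name are a nucleotide hydrolase, a ribosomal protein and a glycolytic enzyme. DESeq2 and limma-voom each called 4 of the 13 lower. Of all genes tested 5.0% were called lower. Among genes with 1000 counts or more, the class of the 3 called rows, 12.4% were called in either direction. The median of the 13 was -0.18, against 0.0029 over all genes tested. Whether the 3 calls hold with 1 library left out is not given here.

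Parent classes known for many copies were described as lists. The 66 ribosomal protein genes tested had a median log2 fold change of -0.19, against 0.0029 over all genes. Of the 66, edgeR called 23 lower, where 5.0% of all genes tested were called lower. It called 0 higher, and so did DESeq2 and limma-voom and an unadjusted p of 0.05. Without a filter on low counts 2 were called higher and 60 lower, where 10.1% of all genes were called in either direction. The count of lower calls was 8 with upper-quartile scaling, 46 with DESeq2 and 0 with the replicate block. In these fits 8.57%, 11.2% and 0.127% of all genes were called in either direction. It was 60 without Ctrl 3 and 32 without PCBP1-OE 3, where 22.3% and 5.42% of all genes were called. It was 1 without Ctrl 1 and 0 without Ctrl 2, PCBP1-OE 1 or PCBP1-OE 2, where 0.375% to 1.92% were. Of 30 other genes with many known copies, 9 were called lower and 1 higher, with a median of -0.087, where 5.0% of all genes were called lower and 4.45% higher, and 12.4% in either direction among genes with 1000 counts or more. Examples were Tubb5, a tubulin, at -0.29, Eno1, a glycolytic enzyme, at -0.17, Ppia, cyclophilin A, at -0.18 (edgeR, adjusted p = 0.00634, 0.0222 and 0.0220) and H3f3b, a histone, at 0.16 (0.0420). The lower calls of this list numbered 3 without Ctrl 1, 1 without Ctrl 2, PCBP1-OE 1 or PCBP1-OE 2, 10 without PCBP1-OE 3 and 15 without Ctrl 3, and the higher call of H3f3b was lost in each of these fits but the one without Ctrl 3.

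Nonsense-mediated decay removes mRNAs with early stop codons, and transcripts of pseudogenes can be among its targets. Of 16 genes of this pathway, all tested, 2 were called higher, where 4.45% of all genes were. All 16 had 1000 counts or more, a class in which 12.4% of genes were called in either direction. The list's median log2 fold change was 0.044, against 0.0029 over all genes. Smg1, the kinase that activates UPF1, had 418, 279 and 383 counts in Ctrl and 535, 631 and 544 in PCBP1-OE, so that its log2 fold change was 0.69 ± 0.14 (SE; edgeR, adjusted p = 0.0150). Upf2, which bridges UPF1 and the exon junction complex, had 155, 144 and 210 against 250, 277 and 235 counts, 0.61 ± 0.13 (SE; edgeR, adjusted p = 0.0181). The groups did not overlap in either gene. Smg1 lost the call without Ctrl 2 (0.0785) or PCBP1-OE 2 (0.0768). Upf2 lost it without Ctrl 1, Ctrl 2, PCBP1-OE 1 or PCBP1-OE 2 (0.0548 to 0.106). Of the list edgeR called 0 lower, as did DESeq2 and limma-voom, and none had an unadjusted p of 0.05 or less in that direction.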

How the data were processed

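For 6 poly-A RNA-seq libraries the authors deposited a table of raw counts per gene. Per the methods, FASTX-Toolkit was used to clean the reads, TopHat2 placed them on Rnor_6.0, and those with 1 mapping place were counted for each gene. The submitters' processing notes name bcl2fastq, TopHat2, edgeR and the build GRCh38, which is a human build, while the gene identifiers are those of rat. How strand was handled, which counting tool was run and which annotation release was taken are points not given in the sources used here. The deposited table gives chromosomes but no start and end, and no genome of its build was used, so no positions or sequences are printed.

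Libraries were taken by their labels (3 per group). Genes with few counts were removed with filterByExpr of edgeR 4.0.16 in R 4.3.3, after which 12624 genes remained for testing and 7985 did not. The groups were given to this filter, with its minimum count set at 10 and its minimum total at 15. Tests were edgeR's quasi-likelihood test with TMM scaling and Benjamini-Hochberg adjustment. A standard error is the size of the log2 fold change divided by the square root of F. CPM values are counts scaled to a common library total and adjusted by TMM. With 19730209 to 22315623 counts per library, the members with fewer than 200 counts had a median variation within groups of 26.4%. The pipeline was tested on simulated data. As alternatives, scaling was by RLE or by the upper quartile, the filter was dropped or set to 1 CPM in 3 libraries, DESeq2 1.42.0 or limma-voom (limma 3.58.1) replaced the test, the replicate number entered as a block, the minimum sum was 30 or 120, and each library was left out. A split by counts and the removal of members that RefSeq lists as coding were added after seeing the data.

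Members and lists were chosen with earlier results of these data known. Named members were those called, the 10 with the most counts, up to 5 changes without overlap in each direction, the 3 on either side of the minimum, and 4 rows listed in a supplement of the study. Members named beside a parent, a RefSeq name or a share in 1 library were chosen after their values were seen, as were the examples from the lists. RefSeq names came from a table of GRCr8.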

Additional observations from a re-analysis of the deposited data

How the results depend on the processing

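The members called higher numbered 4 in the reported fit, 8 without a filter on low counts, 1 with the replicate block, and 1 to 12 with 1 library left out. Those called lower numbered 4, and 2 with upper-quartile scaling, 9 without a filter, 7 with DESeq2, 0 with the block, and 0 to 10 with 1 library left out. Calls with a 2-fold change numbered 2, and 1 with at least 1 CPM in at least 3 libraries, 0 with DESeq2, 0 with the block, and 0 to 3 with 1 library left out. The most calls in each direction came without Ctrl 3. There 11.2% of the members were called in either direction, against 22.3% of all genes tested. The shares were 8.67% against 10.1% without a filter, 5.61% against 11.2% with DESeq2, and 0.510% against 0.127% with the block. Without Ctrl 2 they were 0.513% and 0.375%, so the counts of calls moved over the whole table and not in the members alone. The median log2 fold change of the members, 0.070, was 0.064 to 0.13 with 1 library left out, and the 43 members without overlap became 53 to 82. The summed share moved from -0.00894 to 0.00637 percentage points without LOC100360645. The number of members was 257 at a minimum of 30 counts and 138 at 120, where AABR07010421.1 falls out.

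Replicate numbers did not pair the libraries: same-numbered libraries had correlations of -0.104, -0.0813 and -0.107 in their deviations from the group means, and 0 of 3 controls correlated best with its own number. With the block, AABR07073038.1 was the 1 member called, of 16 genes called in all. Of 22 named members with values, 20 kept their sign under all alternatives run. The exceptions were LOC100911361 (0.012 without Ctrl 2, 0.033 without PCBP1-OE 2, lowest -0.077 without Ctrl 3) and Uba2-ps1 (0.0094 and 0.021, lowest -0.077). The cause was not tested. The members had a median of 226.5 counts, against 3209, and their median coefficient of variation within groups was 18.2%, against 7.05% over all genes tested.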

Other observations

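The libraries differed in how the members lay in them. Ctrl 3 had the lowest CPM of the 6 libraries in 49 members (25.0%), against 12.2% of all genes tested, and Ctrl 1 the highest in 45 (23.0%), against 19.8%. In 19 members (9.69%) all PCBP1-OE libraries were above Ctrl 2 and Ctrl 3 but not above Ctrl 1, against 4.26% of all genes, and in 24 members (12.2%) they were above Ctrl 1 and Ctrl 2 but not above Ctrl 3, against 10.7%. The part of these patterns in the results above was not tested.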
